A study of Mus musculus with 4 samples.

Results

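Claudins and the tight junction genes that work with them were followed across 4 RNA sequencing libraries of mouse pancreas. The set was defined by name: every gene whose symbol is Cldn followed by digits alone, which gave 23 claudins, and 12 listed genes (Ocln, Tjp1, Tjp3, Marveld2, Marveld3, F11r, Jam2, Jam3, Cgn, Cgnl1, Esam and Cxadr), together 35 of the 55291 genes in the count tables. There were 2 libraries labelled knockout, from Pdx1-Cre+, poh1f/f mice, and 2 control libraries, from Pdx1-Cre+, poh1f/+ mice. Both groups thus carried the same Cre transgene and at least 1 floxed copy of poh1, and no group without Cre was analysed here. Poh1 is the older name of Psmd14, a deubiquitinase in the lid of the proteasome. The Pdx1 promoter drives Cre in the early pancreatic epithelium that gives rise to exocrine and endocrine cells, whereas vessels, nerves, fibroblasts and immune cells of the organ have another origin. The labels give no age.

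Tight junctions seal the space between neighbouring epithelial or endothelial cells near their apical side. Claudins are membrane proteins with a pair of extracellular loops that meet their partners on the next cell, and each cell type uses its own mixture, some members tightening the seal and others forming pores for ions and water. Occludin and the tricellulin family join the strands, junctional adhesion molecules (JAMs) lie beside them, and cytoplasmic adaptors such as ZO-1 and cingulin tie them to actin. In the pancreas these junctions keep digestive juice inside the acinar and ductal lumen, and endothelial cells build theirs largely on claudin-5.

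Total counts per library ranged from 22875618 to 27849730, and values are given as CPM, which are counts scaled to the library total with TMM factors, where 1 count was worth 0.0342 to 0.0455 CPM. Psmd14 RNA did not check the label: it had 65.9 and 65.2 CPM in the libraries labelled knockout, against 61.6 and 52.9 CPM in controls (0.20 ± 0.11 on the log2 scale, edgeR adjusted p = 0.259), so the directions given here are between labelled groups. The labels do not say whether the libraries came from separate animals, and the p-values measure the spread between these libraries, which may be technical. The libraries differed in their cell type markers. Acinar markers summed to 229.8 and 698 CPM in the libraries labelled knockout, against 13273 and 2735 CPM in controls, with 10 of 16 genes lower (edgeR; 2 without control replicate 1, 4 with the replicate block, 6 by limma-voom or with a mean-count filter, 14 without knockout replicate 1 and 15 without knockout replicate 2), and lymphocyte markers to 2202 and 1822 CPM in the libraries labelled knockout, against 193 and 137 CPM in controls, with all 14 higher. The defining acinar enzyme gene Ctrb1, of chymotrypsinogen, was present in each library, with 129.5 and 368 CPM in the libraries labelled knockout, against 3874 and 1218 CPM in controls. Duct markers were lower for 10 of 14 genes and fibroblast markers for 5 of 10 (edgeR). Islet markers were lower for 8 of 16 (1 without control replicate 1, 4 without control replicate 2, 13 without knockout replicate 1, 14 without knockout replicate 2). Macrophage markers were lower for 8 of 10 (3 without control replicate 1 or knockout replicate 2, 5 without knockout replicate 1), while 9 of 10 adipocyte markers were higher (5 without control replicate 1). Markers of intestinal epithelium summed to 48.8 and 962 CPM in the libraries labelled knockout, against 102 and 119 CPM in controls, so that knockout replicate 2 stood apart. In RNA of whole tissue, fewer cells of a type and less RNA per cell cannot be told apart.

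Of the 35 genes, 26 passed the filter on low counts, each of them in both libraries of both groups, and 9 claudins did not. Of the 26 tested, 9 fell in the libraries labelled knockout, 3 rose and 14 passed in neither direction (edgeR, adjusted p under 0.05). Differences between groups are given as log2 fold changes, labelled knockout minus control, ± the standard error of the fit. Among all 19134 genes tested, 22.1% were called in either direction, 9.95% as lower and 12.1% as higher, whereas 34.6% of the members tested were called lower and 11.5% higher. The median log2 fold change of the 26 was -0.88, against 0.00 over all genes tested. The genes that fell were Cldn2, Cldn4, Cldn6, Cldn8, Ocln, Marveld2, F11r, Cgn and Cxadr, and those that rose were Cldn5, Cldn11 and Jam3. Without control replicate 1 fewer members were called lower, as were fewer of all genes tested. Without knockout replicate 2, the library with intestinal RNA, more members were called lower, although fewer of all genes tested were. Among the 26 tested, the libraries of the groups did not overlap for 16 members that were lower and 5 that were higher in the libraries labelled knockout. Of the 19134 genes tested, 33.7% were lower and 34.4% higher without overlap.

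**Figure D1:**
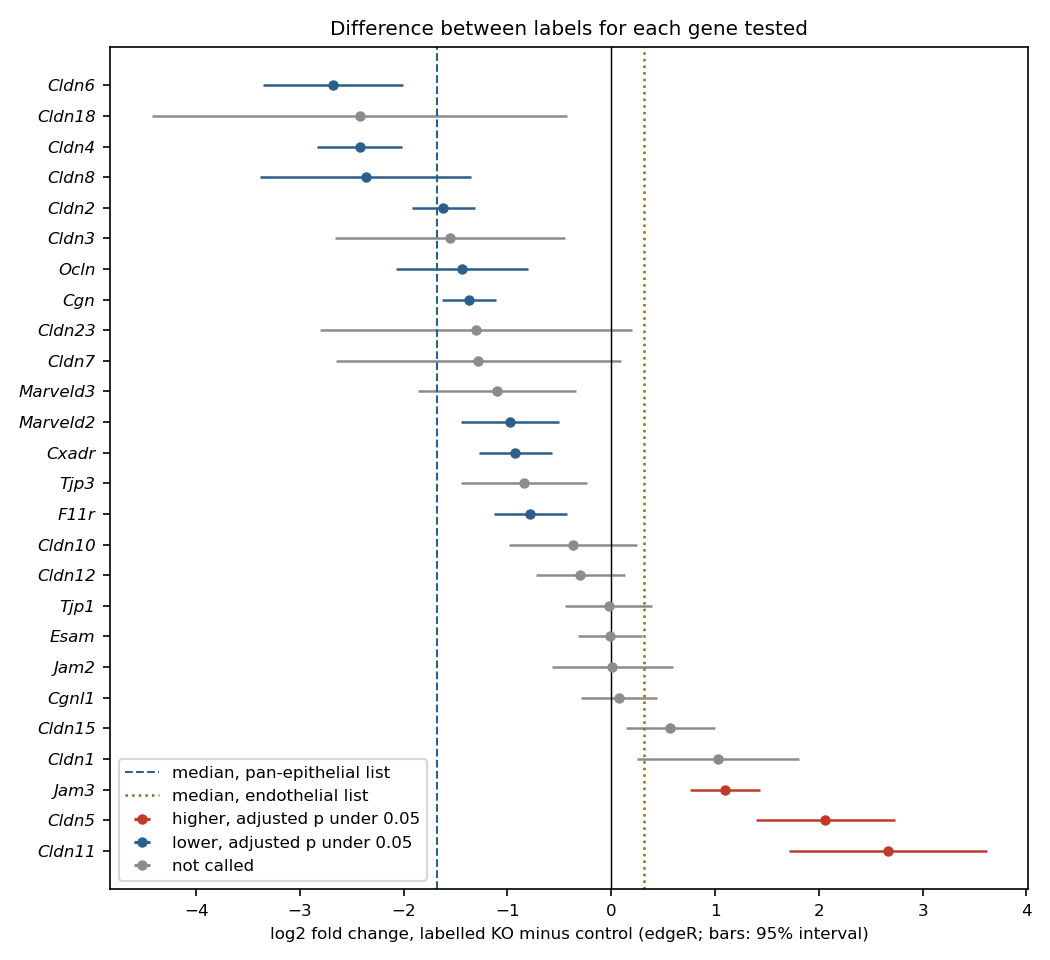
Log2 fold change (labelled knockout minus control) of each of the 26 tight junction genes tested, with its 95% interval from the edgeR fit on 2 libraries per group. Red points are higher and blue points lower at an adjusted p under 0.05, grey points did not pass, and the lines mark the median of the pan-epithelial list (-1.68) and of the endothelial list (0.31).

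The claudins counted here as epithelial were Cldn1 to Cldn4, Cldn6 to Cldn10, Cldn15 to Cldn18 and Cldn23, without Cldn12. Of these 14 claudins, 11 could be tested, and Cldn4, Cldn6, Cldn2 and Cldn8 fell while none rose (edgeR). The plot of CPM by library shows these beside the members that did not differ. Cldn4 (chromosome 5, 134945119 to 134946934), a barrier-forming claudin of ducts and other simple epithelia, had 51.8 and 63.6 CPM in the libraries labelled knockout, against 334 and 285 CPM in controls. Both libraries labelled knockout lay far below both controls, a difference of -2.42 ± 0.16 on the log2 scale, or 5.36-fold higher in control (edgeR adjusted p = 0.00241). Cldn6 (chromosome 17, 23679249 to 23682446), known from embryonic epithelia, had 5.62 and 8.97 CPM in the libraries labelled knockout, against 51.3 and 42.4 CPM in controls. It was the member with the lowest fitted value (-2.68 ± 0.27, edgeR adjusted p = 0.00561; -2.53 and adjusted p = 0.0534 without control replicate 1). Cldn2 (chromosome X, 139800828 to 139811386), which forms a pore for cations and water, had 43.9 and 51.3 CPM in the libraries labelled knockout, against 149.7 and 142 CPM in controls. The replicates of each group lay close together and the groups did not overlap (-1.62 ± 0.12, edgeR adjusted p = 0.00302). Cldn8 (chromosome 16, 88560828 to 88563183), a barrier claudin of the distal nephron and colon, was scarce, with 0.788 and 1.37 CPM in the libraries labelled knockout, against 6.46 and 4.73 CPM in controls. It fell as well (-2.37 ± 0.40, edgeR adjusted p = 0.0182), but the call was lost when control replicate 1 was left out (edgeR adjusted p = 0.0994) or control replicate 2 (0.0567).

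**Figure D2:**
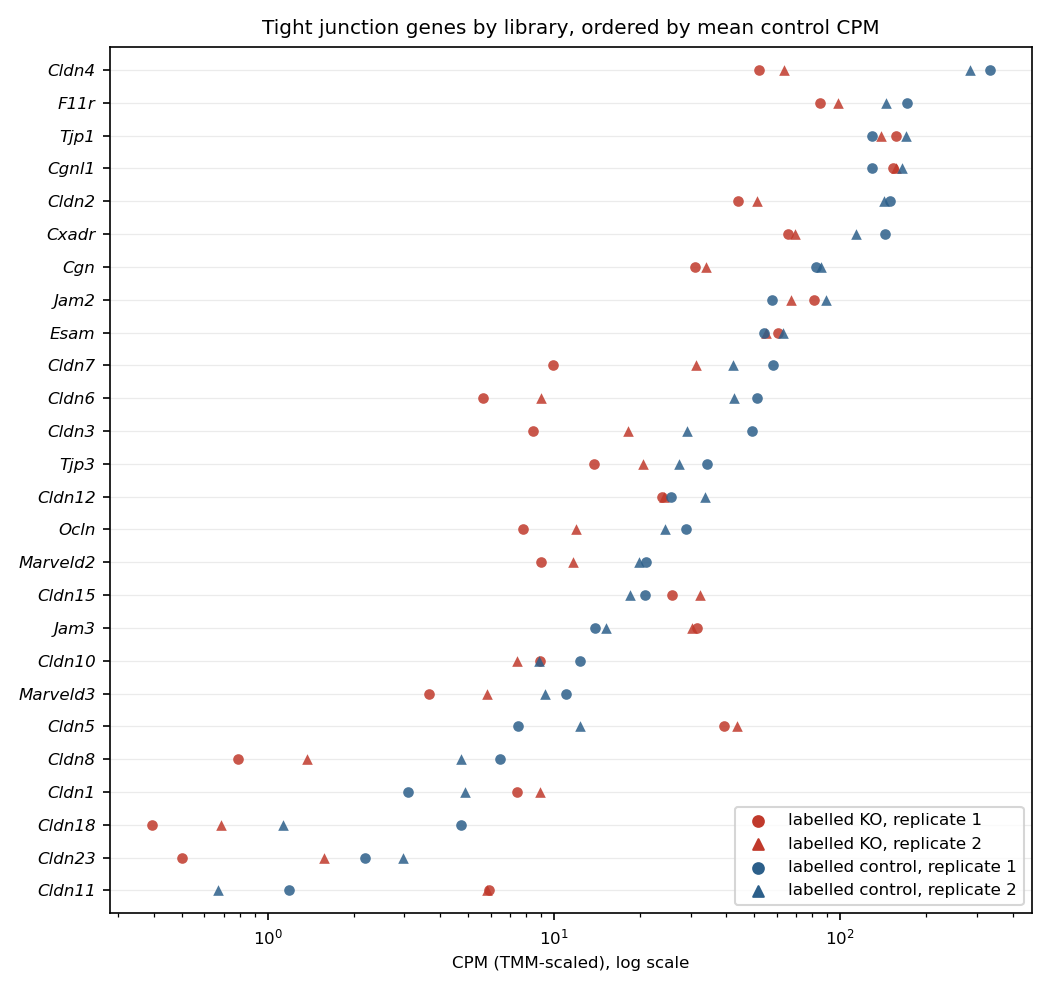
CPM (log scale) of the 26 tight junction genes tested in each library, with red symbols for the libraries labelled knockout and blue for controls. Cldn4 and Cldn2 lie far to the left of their controls in both red libraries, Cldn5 and Cldn11 to the right, and Cgnl1, Esam, Jam2 and Tjp1 overlap.

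The promoters of Cldn4, Cldn6 and Cldn2, which fell, and of Cldn5, which rose, are shown because the changes in claudin RNA turn on these 4 genes. Sequences are from RefSeq on GRCm38.p6, in the direction of transcription, from 250 bases before to 50 after the RefSeq gene start, and 26 of the 35 members have one in that table. Capitals mark matches, on either strand, to any of the motifs searched: the GC box (GGGCGG), the E-box (CAGGTG), the TATA box (TATAAA), the Grainyhead-like motif (AACCNGTT), the SOX motif (ACAATG) and the HNF1 motif.
Cldn4 promoter, chr5:134946885-134947184, minus strand: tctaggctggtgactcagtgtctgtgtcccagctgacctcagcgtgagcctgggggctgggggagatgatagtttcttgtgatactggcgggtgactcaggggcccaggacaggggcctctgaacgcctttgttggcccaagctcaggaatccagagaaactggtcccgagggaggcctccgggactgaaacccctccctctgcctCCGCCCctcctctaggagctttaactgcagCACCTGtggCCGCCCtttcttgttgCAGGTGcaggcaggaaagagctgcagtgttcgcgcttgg
Cldn6 promoter, chr17:23679115-23679414, plus strand: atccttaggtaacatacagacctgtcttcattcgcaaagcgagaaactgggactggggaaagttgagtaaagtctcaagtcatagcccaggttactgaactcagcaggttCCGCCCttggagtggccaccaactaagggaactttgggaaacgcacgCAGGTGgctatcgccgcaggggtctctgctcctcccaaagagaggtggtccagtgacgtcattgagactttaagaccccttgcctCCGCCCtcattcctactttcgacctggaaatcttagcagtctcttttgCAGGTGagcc
Cldn2 promoter, chrX:139800558-139800857, plus strand: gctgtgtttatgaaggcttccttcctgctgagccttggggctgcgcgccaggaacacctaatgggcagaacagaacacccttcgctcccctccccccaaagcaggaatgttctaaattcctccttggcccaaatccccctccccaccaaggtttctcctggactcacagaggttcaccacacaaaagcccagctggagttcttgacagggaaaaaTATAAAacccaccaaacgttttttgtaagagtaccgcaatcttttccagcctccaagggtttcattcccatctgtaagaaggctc
Cldn5 promoter, chr16:18776597-18776896, plus strand: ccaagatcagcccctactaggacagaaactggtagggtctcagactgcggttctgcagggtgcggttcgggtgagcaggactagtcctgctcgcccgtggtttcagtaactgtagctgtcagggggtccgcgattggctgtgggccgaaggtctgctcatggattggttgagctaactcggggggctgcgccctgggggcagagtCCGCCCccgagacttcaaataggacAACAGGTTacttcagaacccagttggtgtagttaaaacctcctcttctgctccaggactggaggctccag

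The Cldn4 and Cldn6 windows each held a pair of GC boxes and a pair of E-boxes, the Cldn2 window held a TATA box and neither of these, and the Cldn5 window held a GC box and a Grainyhead-like match. No motif searched overlapped another in these windows. Among 32817 promoter windows of this length in the table, 35.6% held the GC box, 20.2% the E-box, 13.6% the TATA box, 12.6% the SOX motif and 2.08% the Grainyhead-like motif. The HNF1 motif was in 3 windows, none of them of a member. Among the 37 windows of members, several genes having more than one, 21 held the GC box and 12 the E-box. These matches describe the letters and are not sites shown to be bound.

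Cldn3 and Cldn7, which are barrier claudins of simple epithelia, Cldn18 of stomach and lung, and Cldn23 had lower values in both libraries labelled knockout without passing the test. Cldn3 (chromosome 5, 134986214 to 134987472), which lies 39279 bases from Cldn4 on the opposite strand, had 8.45 and 18.2 CPM in the libraries labelled knockout, against 49.2 and 29.1 CPM in controls. Its fitted difference was -1.55 ± 0.44 (edgeR adjusted p = 0.0613). Cldn7 (chromosome 11, 69964779 to 69967885) had 9.92 and 31.5 CPM in the libraries labelled knockout, against 58.4 and 42.1 CPM in controls. Here knockout replicate 2 lay close to the controls and knockout replicate 1 well below (-1.28 ± 0.54, edgeR adjusted p = 0.151). Both fitted values moved with the library left out. Without knockout replicate 2 both were called, Cldn3 at -2.21 (edgeR adjusted p = 6.46e-05) and Cldn7 at -2.34 (8.52e-06). Without knockout replicate 1, Cldn3 was at -1.11 (edgeR adjusted p = 0.0111) and Cldn7 at -0.68 (0.0633), and DESeq2 called Cldn3 alone of the 2 (adjusted p = 0.00156). Cldn23 (chromosome 8, 35824712 to 35826559) showed the same split, with 0.501 and 1.57 CPM in the libraries labelled knockout, against 2.18 and 2.97 CPM in controls (-1.31 ± 0.59, edgeR adjusted p = 0.173; -2.35 and 0.0159 without knockout replicate 2, -0.71 and 0.407 without knockout replicate 1). Lgals4, the most abundant gene of the intestinal list, had 29.6 and 108 CPM in the libraries labelled knockout, against 23.6 and 30.5 CPM in controls. Sis, the sucrase of the intestinal brush border, had 85.9 CPM in knockout replicate 2 and 0 counts in the 3 other libraries. The part of intestinal RNA in these members was not tested. Cldn18 (chromosome 9, 99689461 to 99717267) had 0.394 and 0.685 CPM in the libraries labelled knockout, against 4.73 and 1.13 CPM in controls, so the controls differed more from each other than control replicate 2 did from the libraries labelled knockout (-2.42 ± 0.79, edgeR adjusted p = 0.0854; -1.05 and 0.337 without control replicate 1). It was called without control replicate 2 (-3.12, edgeR adjusted p = 0.0477), without knockout replicate 2 (-2.87, 0.0202) and by DESeq2 (0.0239).

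Cldn15, Cldn1, Cldn10 and Cldn12 had smaller fitted differences than Cldn2, and none of them passed. Cldn15 (chromosome 5, 136966616 to 136975858), a cation pore of the gut, had 25.9 and 32.3 CPM in the libraries labelled knockout, against 20.8 and 18.4 CPM in controls, higher in both libraries labelled knockout (0.57 ± 0.17, edgeR adjusted p = 0.0677). Cldn1 (chromosome 16, 26356642 to 26371841), the claudin of the skin barrier, had 7.41 and 8.9 CPM in the libraries labelled knockout, against 3.09 and 4.89 CPM in controls and again no overlap (1.03 ± 0.31, edgeR adjusted p = 0.0704). Each was called as higher under 2 of the 11 alternatives, DESeq2 among them (adjusted p = 0.0353 for Cldn15 and 0.0281 for Cldn1). Without knockout replicate 1 the fitted values were 0.72 for Cldn15 and 1.15 for Cldn1. Leaving out knockout replicate 2, the library with intestinal RNA, gave 0.40 and 0.89. Cldn10 (chromosome 14, 118787908 to 118875489), an ion-selective claudin of kidney and glands, overlapped between groups, with 8.92 and 7.43 CPM in the libraries labelled knockout, against 12.3 and 8.87 CPM in controls (-0.37 ± 0.24, 95% interval -0.99 to 0.25). Cldn12 (chromosome 5, 5489537 to 5514958) had 23.9 and 24.3 CPM in the libraries labelled knockout, against 25.7 and 33.6 CPM in controls (-0.30 ± 0.17, 95% interval -0.73 to 0.13).

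Epithelial claudin RNA was then set against other epithelial RNA of the same library. The 14 epithelial claudins summed to 164 and 226 CPM in the libraries labelled knockout, against 693 and 583 CPM in controls. The 16 genes of the pan-epithelial list, such as the adhesion molecule Epcam and the keratins Krt8 and Krt18, summed to 547 and 807 CPM in the libraries labelled knockout, against 2475 and 1984 CPM in controls, and 14 of the 16 fell (edgeR; median -1.68; 3 fell without control replicate 1 and 8 without control replicate 2). The ratio of summed epithelial claudins to this sum was 0.3 and 0.28 in the libraries labelled knockout and 0.28 and 0.294 in controls. The log2 ratio differed by 0.01, less than its SD of 0.07 within the libraries labelled knockout and 0.05 within controls (exact two-sided permutation p = 1.0, where 2 libraries against 2 cannot go below 0.333). With the mean of log2(CPM + 1) over each list, the difference was 0.62 (exact permutation p = 0.333). In that mean the added 1 CPM shrinks the differences of scarce claudins, and Cldn16 and Cldn17, with 0 counts, add none. The part of this shrinkage in the 0.62 was not tested.

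The ratios of single claudins to the pan-epithelial sum, in which they are not counted, are given as percentages of that sum. Cldn4 stood at 9.48 and 7.88% in the libraries labelled knockout, against 13.5 and 14.4% in controls. Cldn6 stood at 1.03 and 1.11% in the libraries labelled knockout, against 2.07 and 2.14% in controls. Both were lower in the libraries labelled knockout by this measure too, as was Cldn8. Cldn2 overlapped, at 8.03 and 6.36% in the libraries labelled knockout, against 6.05 and 7.18% in controls, as did Cldn3, Cldn7, Cldn18 and Cldn23. Cldn7 stood at 1.81 and 3.9% in the libraries labelled knockout, against 2.36 and 2.12% in controls. Its knockout replicate 1 lay below both controls and knockout replicate 2 above them. The part of intestinal RNA in the pan-epithelial sum of knockout replicate 2 was not tested. Cldn15 stood at 4.73 and 4.01% in the libraries labelled knockout, against 0.84 and 0.93% in controls, higher in both libraries labelled knockout, and Cldn1 and Cldn10 were higher as well. Of the 11 epithelial claudins tested, 3 were lower and 3 higher relative to epithelial markers without overlap, and 5 overlapped. Of the 19134 genes tested, 0.977% were lower and 91.7% higher than controls by the same ratio without overlap. An exact permutation test of each ratio can reach no lower than p = 0.333, so these are values of 4 libraries and no calls.

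**Figure D3:**
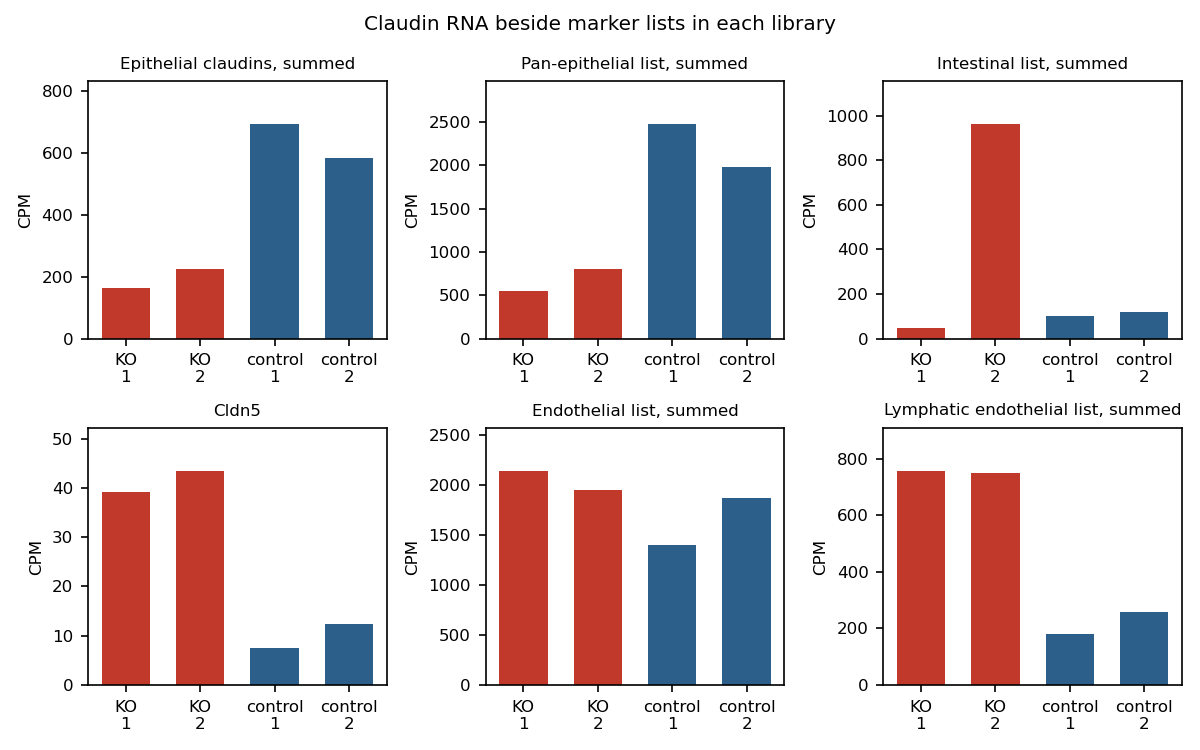
Summed CPM per library of the epithelial claudins, the pan-epithelial list, the intestinal list, Cldn5, the endothelial list and the lymphatic endothelial list, with each bar 1 library and red bars the libraries labelled knockout. Epithelial claudins and pan-epithelial markers are low together in the red bars, and intestinal markers stand out in knockout replicate 2 at 962 CPM. Cldn5 and the lymphatic list are both higher in the red bars. The sums of the venule, adipocyte and lymphocyte lists, which are not drawn, were higher in the same libraries.

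Cldn5 (chromosome 16, 18776847 to 18778262), the main claudin of endothelial cells, went the other way. It had 39.2 and 43.5 CPM in the libraries labelled knockout, against 7.46 and 12.3 CPM in controls. Both libraries labelled knockout were above both controls, by 2.06 ± 0.26 on the log2 scale or 4.18-fold (edgeR adjusted p = 0.00959), and the gene was called under all 11 alternatives tried. The summed CPM of the epithelial claudins divided by the CPM of Cldn5 gave 4.18 and 5.2 in the libraries labelled knockout, against 92.9 and 47.4 in controls. This ratio differed by -3.83 on the log2 scale, so that it was 14.2-fold higher in control, with SDs of 0.22 within the libraries labelled knockout and 0.69 within controls (exact two-sided permutation p = 0.333, the lowest the design allows).

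Most other markers of blood vessels did not pass. Of the 16 genes of the endothelial list, Pecam1 and Kdr rose and 14 did not pass (edgeR; median 0.31; 5 rose without control replicate 2), and the list summed to 2139.8 and 1952 CPM in the libraries labelled knockout, against 1395 and 1869.5 CPM in controls. Pecam1, an adhesion molecule of endothelium and of some blood cells, had 342 and 348 CPM in the libraries labelled knockout, against 190.3 and 221 CPM in controls. Eng, a TGF-beta co-receptor of endothelium, had 242 and 207 CPM in the libraries labelled knockout, against 214 and 270.3 CPM in controls. Set against that list's sum, which does not include it, Cldn5 was at 1.83 and 2.23% in the libraries labelled knockout, against 0.535 and 0.658% in controls, a log2 difference of 1.77 (exact permutation p = 0.333). Lymphatic endothelial and high endothelial venule markers were also higher: 5 of 7 lymphatic and 4 of 6 venule genes rose and none fell (edgeR; medians 1.54 and 1.28). Over all genes tested 12.1% were called higher, and of the endothelial list 12.5%. With DESeq2 size factors, a mean-count filter or the replicate block, 4 of the 7 lymphatic genes rose. Not every lymphatic gene was higher, the lowest fitted value being -0.44. Fewer venule genes passed with either control library or knockout replicate 2 left out, and fewer lymphatic genes without control replicate 1. With 1 library left out the medians ranged from 1.07 to 2.24 for the lymphatic and from 1.13 to 1.53 for the venule list. The lymphatic list, led by the hyaluronan receptor Lyve1 and the chemokine Ccl21a, which stromal cells of lymph nodes also make, summed to 758 and 749.6 CPM in the libraries labelled knockout, against 180.2 and 259 CPM in controls. Relative to the lymphatic sum Cldn5 was at 5.17 and 5.8% in the libraries labelled knockout, against 4.14 and 4.74% in controls, a log2 difference of 0.31, a comparison added after the values were seen. The venule list summed to 529.7 and 436 CPM in the libraries labelled knockout, against 223 and 175 CPM in controls. Relative to the venule sum Cldn5 was at 7.4 and 9.98% in the libraries labelled knockout, against 3.34 and 7.04% in controls. That log2 difference of 0.82 was also set out after the values were seen. Glycam1, a ligand for L-selectin on these venules, had 36.4 and 39.3 CPM in the libraries labelled knockout, against 0.455 and 0.335 CPM in controls. It was chosen after its values were seen, and the fitted values of the venule list ran from 0.15 to 6.57. The part of these vessel types in the Cldn5 level was not tested.

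Cldn11 and Cldn19, claudins of myelin, were scarce in controls. Cldn11 (chromosome 3, 31149920 to 31164324), known from oligodendrocytes and Sertoli cells, had 5.91 and 5.85 CPM in the libraries labelled knockout, against 1.18 and 0.669 CPM in controls. The libraries labelled knockout almost coincided and lay above both controls (2.67 ± 0.37, edgeR adjusted p = 0.0119), a rise also called under all 11 alternatives. Cldn19 (chromosome 4, 119255414 to 119262438), a claudin of Schwann cells and kidney, had 10 and 18 counts in the libraries labelled knockout and 0 and 2 in controls and was too scarce for the filter. Its scaled ratio over the summed counts was 11.2, with an exact 95% counting interval from 2.84 to 97.4 that covers counting error only, and with the filter off it was not called (edgeR adjusted p = 0.112). Of the 10 genes of the Schwann and myelin list 4 rose, Mbp and Cnp among them, and none fell (edgeR; median 0.61). Fewer rose without control replicate 1, and DESeq2 and limma-voom each called 1 lower. The list summed to 469 and 432 CPM in the libraries labelled knockout, against 333 and 327 CPM in controls. Relative to that sum Cldn11 was at 1.26 and 1.36% in the libraries labelled knockout, against 0.355 and 0.205% in controls, a log2 difference of 2.28. Against the endothelial, venule and lymphatic sums the log2 differences of Cldn11 were 2.39, 1.44 and 0.92. The part of nerve or vessel RNA in the Cldn11 and Cldn19 levels was not tested.

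The other claudins were near or at 0. Cldn16 and Cldn17 had 0 counts in every library, which with a limit of 3 counts allows up to 0.136 CPM in the shallowest library. Cldn22 also had 0, but all of its exon sequence overlaps Wwc2 on the opposite strand, and whether reads lying in both genes were counted was not tested. Cldn13, Cldn14 and Cldn24 had at most 4 counts in any library. Cldn20 had 12 and 10 counts in the libraries labelled knockout and 4 and 5 in controls. Cldn9, which lies 137 bases beyond Cldn6 on the opposite strand, had 6 and 2 counts in the libraries labelled knockout and 12 and 6 in controls, whereas Cldn6 had 157 and 262 counts in the libraries labelled knockout and 1127 and 1013 in controls.

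The mixture of claudins differed between the labels. Per kilobase of merged exons, which allows genes to be compared, all claudins summed to 130.2 ± 25.4 CPM per kb in the libraries labelled knockout and 332 ± 40.1 CPM per kb in controls (SD, n = 2 each). Cldn4 led in both groups, with 24.5 ± 1.28% of that sum in the libraries labelled knockout and 51.4 ± 0.484% in controls. Cldn5 held 22.7 ± 2.79% in the libraries labelled knockout, next after Cldn4, and 2.16 ± 0.989% in controls. Cldn4 and Cldn5 did not differ beyond their spread in the libraries labelled knockout, at 31.8 ± 4.57 and 29.2 ± 2.14 CPM per kb. Cldn2 held 11.1 ± 0.953% in the libraries labelled knockout and 13.3 ± 1.15% in controls, where it was second. Cldn15 held 10.6 ± 0.405% in the libraries labelled knockout and 2.79 ± 0.102% in controls. Cldn6 held 3.21 ± 0.428% in the libraries labelled knockout and 8.18 ± 0.11% in controls. These shares add up to a fixed whole, so a lower share of one raises that of the others.

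**Figure D4:**
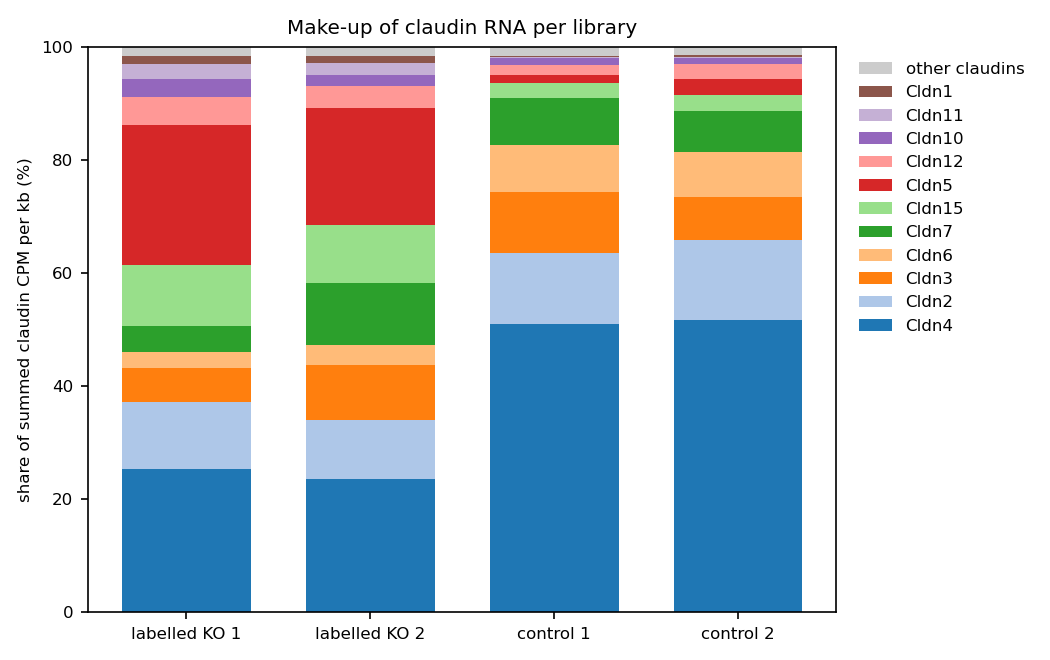
Share of the summed claudin CPM per kb (%) held by each claudin in each library, with the libraries labelled knockout on the left. Cldn4 holds 25.4 and 23.6% in the libraries labelled knockout and 51.0 and 51.7% in controls, and Cldn5 holds 24.7 and 20.7% against 1.46 and 2.86%.

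Among the membrane proteins related to occludin, Ocln and Marveld2 fell. Ocln (chromosome 13, 100496507 to 100552718), occludin, had 7.77 and 11.9 CPM in the libraries labelled knockout, against 29.0 and 24.5 CPM in controls (-1.44 ± 0.25, edgeR adjusted p = 0.0192). Marveld2 (chromosome 13, 100595957 to 100616971), tricellulin, which seals the corners where 3 cells meet, had 9.03 and 11.6 CPM in the libraries labelled knockout, against 20.9 and 19.8 CPM in controls (-0.98 ± 0.19, edgeR adjusted p = 0.0237). Neither call held without control replicate 1 (edgeR adjusted p = 0.113 for Ocln and 0.114 for Marveld2) or without control replicate 2 (0.0671 and 0.0788), with fitted values of -1.31 to -1.55 and -0.94 to -1.01. Marveld3 (chromosome 8, 109947914 to 109962203), the other member of this small family, had 3.65 and 5.82 CPM in the libraries labelled knockout, against 11.1 and 9.29 CPM in controls but did not pass (-1.10 ± 0.30, edgeR adjusted p = 0.0558); limma-voom (adjusted p = 0.0456) and DESeq2 (0.0134) called it, as did edgeR without knockout replicate 2 (-1.47, adjusted p = 0.00717). Relative to the pan-epithelial sum all 3 were higher in the libraries labelled knockout without overlap, as were 91.7% of all genes tested, with Marveld2 at 1.65 and 1.44% in the libraries labelled knockout, against 0.844 and 0.997% in controls.

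The JAM family and its relatives split by gene. F11r (chromosome 1, 171437535 to 171464603), which encodes JAM-A of epithelium, endothelium and blood cells, had 85.2 and 98.6 CPM in the libraries labelled knockout, against 171 and 144 CPM in controls. It fell (-0.78 ± 0.14, edgeR adjusted p = 0.0203). The call did not hold without control replicate 1, with an edgeR adjusted p = 0.0828, nor without knockout replicate 1, with 0.0523. Cxadr (chromosome 16, 78301489 to 78359774), the receptor for coxsackievirus and adenovirus, had 65.6 and 69.7 CPM in the libraries labelled knockout, against 143 and 114 CPM in controls and fell without overlap (-0.92 ± 0.14, edgeR adjusted p = 0.0137). About 9.39% of its exon length overlaps Btg3 on the opposite strand. Jam3 (chromosome 9, 27097384 to 27155421), JAM-C, known from endothelium, Schwann cells and spermatids, had 31.7 and 30.4 CPM in the libraries labelled knockout, against 13.9 and 15.2 CPM in controls. It rose to about the same level in both libraries labelled knockout (1.10 ± 0.13, edgeR adjusted p = 0.00862) and was called under all 11 alternatives. An antisense gene, Gm48796, covers 36.2% of the Jam3 exon length, and no source used here gives the strand setting of the counting, so its reads cannot be told apart from those of Jam3. Relative to the endothelial sum Jam3 was at 1.48 and 1.56% in the libraries labelled knockout, against 0.994 and 0.812% in controls. It was also higher relative to the Schwann and myelin sum. Relative to the venule sum the groups overlapped. Relative to the lymphatic sum it was lower, at 4.18 and 4.06% in the libraries labelled knockout, against 7.7 and 5.85% in controls.

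Jam2 and Esam, both known from endothelium, did not pass. Jam2 (chromosome 16, 84774123 to 84825928), JAM-B, had 80.7 and 67.1 CPM in the libraries labelled knockout, against 57.5 and 89.1 CPM in controls, with control replicate 1 lowest and control replicate 2 highest (0.01 ± 0.23, 95% interval -0.57 to 0.60). Esam (chromosome 9, 37528078 to 37538319), the endothelial cell-selective adhesion molecule, had 60.7 and 55.3 CPM in the libraries labelled knockout, against 54.0 and 63.1 CPM in controls (-0.01 ± 0.12, 95% interval -0.32 to 0.29). Both overlapped between groups, and neither interval meets that of Cldn5 (95% interval 1.39 to 2.73). The difference between these genes was not itself tested.

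The cytoplasmic adaptors split between epithelial and widely expressed members. Cgn (chromosome 3, 94760069 to 94786492), cingulin, which links epithelial junctions to actin, had 31.0 and 34.1 CPM in the libraries labelled knockout, against 82.6 and 85.7 CPM in controls (-1.37 ± 0.10, edgeR adjusted p = 0.0031) and was called under all 11 alternatives. Its paralogue Cgnl1 (chromosome 9, 71626509 to 71771602), paracingulin, which is also found in endothelium, had 153 and 156 CPM in the libraries labelled knockout, against 129.6 and 164 CPM in controls. The groups overlapped (0.08 ± 0.14, 95% interval -0.29 to 0.44), and the intervals of the paralogues did not meet (95% interval -1.63 to -1.11 for Cgn). Tjp3 (chromosome 10, 81273207 to 81291581), ZO-3 of epithelia, had 13.8 and 20.5 CPM in the libraries labelled knockout, against 34.2 and 27.2 CPM in controls but did not pass (-0.84 ± 0.24, edgeR adjusted p = 0.0629; -1.15 and adjusted p = 0.00402 without knockout replicate 2, and 0.0144 by DESeq2). Tjp1 (chromosome 7, 65296165 to 65527781), ZO-1 of epithelial, endothelial and many other cells, had 156 and 138 CPM in the libraries labelled knockout, against 129 and 170.3 CPM in controls, overlapping between groups (-0.02 ± 0.17, 95% interval -0.45 to 0.40).

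Other tight junction scaffold, angulin and polarity genes were read from a list of 48 genes, of which 45 matched a symbol in the files and were tested. Among them 12 fell and 2 rose, and 31 did not pass (edgeR; median -0.26). That is 26.7% lower and 4.44% higher, where the background is 9.95% and 12.1%. Lsr, an angulin that brings tricellulin to cell corners, had 11.4 and 12.3 CPM in the libraries labelled knockout, against 27.8 and 29.5 CPM in controls (-1.28 ± 0.14, edgeR adjusted p = 0.00713). Clmp, an adhesion molecule related to Cxadr, fell as well (-1.35 ± 0.17, edgeR adjusted p = 0.00949). So did Pard6b, a partner of atypical protein kinase C in the apical polarity complex (-1.09 ± 0.14, edgeR adjusted p = 0.0101). The genes that rose were Arhgef18, a guanine nucleotide exchange factor, with 139 and 159 CPM in the libraries labelled knockout, against 59.1 and 75.1 CPM in controls (1.15 ± 0.15, edgeR adjusted p = 0.0107), and Pdzd2, a protein with PDZ domains, with 113 and 93.0 CPM in the libraries labelled knockout, against 26.2 and 51.6 CPM in controls (1.40 ± 0.33, edgeR adjusted p = 0.0398). Without scaling beyond the library total the count was 7 lower and 2 higher. With either control library left out fewer of the list were called, as were fewer of all genes tested. The list median was then -0.36 without control replicate 1 and -0.25 without control replicate 2.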

How the data were processed

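Titles of the 4 mouse pancreas libraries gave group and replicate number. Per the labels' protocols, TRIzol-extracted total RNA was cleaned, DNase-treated and built into libraries with the VAHTS Universal V6 kit. The submitters' processing notes list GRCm38 and, in no stated order, featureCounts 2.0.1, SAMtools 1.7, STAR 2.7.6a, Trim Galore 0.6.6 and FastQC 0.11.9, without annotation release or strand setting. The authors deposited raw whole-number counts for each gene symbol.

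All genes were tested together in edgeR 4.0.16 (R 4.3.3), with TMM scaling, filterByExpr at a minimum count of 10 (19134 genes left) and a quasi-likelihood F test between the groups, adjusted by Benjamini-Hochberg at 0.05. Standard errors were derived from the fold change and the square root of F. These steps were tested on simulated data. Positions, merged exon lengths and exon overlaps are from GENCODE M21 on GRCm38, where all 35 members were found. Ratios were taken per library and tested by exact permutation of the libraries. Libraries of a group differed beyond sampling noise (chi-square over degrees of freedom 32.5 for knockout and 46.2 for control). Alternatives were other scalings and filters, DESeq2 1.42.0, limma-voom 3.58.1, a block for replicate number and each library left out. The members and lists were chosen with earlier results of these data known. Every member is reported, with values by library from a mean of 1 CPM in either group. Of the scaffold and adherens lists, the 4 called genes with the smallest p in each direction are named, apart from a result not reported here, and of the cell type lists used in the text the most abundant ones. Kdr, Epcam, Sis, Glycam1, Cdh5 and other genes named beyond these were chosen after their values were seen.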

Additional observations from a re-analysis of the deposited data

How the results depend on the processing

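Members called numbered 3 higher and 9 lower with DESeq2 size factors, without scaling, without a filter on low counts, with a mean-count filter and with the replicate block. DESeq2 called 5 higher and 13 lower, and limma-voom 3 and 10. With 1 library left out, 3 to 5 were higher (5 without knockout replicate 1) and 4 to 15 lower (4 without control replicate 1, 7 without control replicate 2, 15 without knockout replicate 2). Scaffold and polarity genes called lower numbered 7 without scaling, 8 with the replicate block, 9 without the filter, 16 by DESeq2 and 2 to 11 with 1 library left out, and those higher 0 to 2. Over all genes tested, fewer were called in total with any 1 library left out than in the full fit. The replicate block changed no call of a member. Deviations of same-numbered libraries correlated at -0.0502 across genes, so the numbers were not taken to pair libraries. Epithelial claudins relative to epithelial markers changed sign, at -0.0348 without knockout replicate 1 and -0.0205 without control replicate 1, within a range from -0.0348 to 0.0632, and gave 0.618 with mean logs. Relative to Cldn5 they differed by -4.32 to -3.35 with 1 library left out and by -2.88 with mean logs. Cldn5 relative to endothelial markers gave 1.62 to 1.92 with 1 library left out, 1.67 with mean logs and 0.306 against the lymphatic list. Of 286 alternative log2 fold changes of members, 251 kept direction and call, 17 gained a call, 9 lost one and 9 changed sign. Tjp1 was 0.071 without scaling and -0.208 to 0.188 with 1 library left out (0.061 without knockout replicate 2), and Esam 0.0822 and -0.121 to 0.104 (0.0532). Jam2 ranged from -0.269 to 0.362 (-0.133 without knockout replicate 1) and Cgnl1 from -0.0812 to 0.257, none of these called in the fit reported. The causes were not tested. A library alone in its group was assumed to vary like the other group. Without scaling the median of all genes moved by 0.098. Depth limits what can be said of claudins with a few counts.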

Other observations

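Adherens junctions lie just below tight junctions and hold neighbouring cells together through cadherins, nectins and catenins. Of 17 such genes listed, 13 matched a symbol and were tested. Of these, 8 fell, none rose and 5 did not pass (edgeR; median -0.69; 3 fell without control replicate 1, and without control replicate 2, 5 fell and 1 rose), where 9.95% of all genes tested fell and 12.1% rose. Nectin4 (-1.26 ± 0.15, edgeR adjusted p = 0.0079), Nectin1 (-1.07 ± 0.14, edgeR adjusted p = 0.01), the epithelial cadherin Cdh1 (-1.80 ± 0.25, edgeR adjusted p = 0.0112) and plakoglobin, Jup (-0.69 ± 0.10, edgeR adjusted p = 0.0121), fell. Cdh1 had 72.4 and 116 CPM in the libraries labelled knockout, against 347 and 310.4 CPM in controls. The endothelial cadherin Cdh5 had 163 and 149.7 CPM in the libraries labelled knockout, against 99.8 and 157 CPM in controls and did not pass (0.28 ± 0.23, edgeR adjusted p = 0.405).

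Claudin-named genes outside the definition included Cldn34c1, with 3.87 and 3.35 CPM in the libraries labelled knockout, against 5.69 and 4.94 CPM in controls (-0.56 ± 0.25, edgeR adjusted p = 0.175), and Cldnd1, with 50.8 and 53.8 CPM in the libraries labelled knockout, against 58.2 and 56.5 CPM in controls (-0.13 ± 0.10, edgeR adjusted p = 0.358). These 2 genes were chosen after their values were seen.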
